A study of Mus musculus with 6 samples.

Results

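The genes described here are the high glycine-tyrosine keratin-associated protein (KAP) genes of the mouse, taken as all genes whose symbols begin with Krtap6-, Krtap7-, Krtap8-, Krtap16-, Krtap19-, Krtap20-, Krtap21- or Krtap22- and that have an array row naming no other kind of gene. This rule used names alone and gave 15 genes of the 30098 with a row of their own, in 8 subfamilies, all on chromosome 16. They were measured in cells sorted as hair follicle stem cells (HFSCs), the CD34+ and α6-integrin+ cells of the bulge, after trypsin had parted epidermis from dermis. The donors were female mice, and their back skin was taken at postnatal day (PD) 35. The Dab2-cKO mice carried floxed Dab2 alleles and a tamoxifen-inducible Cre driven by the keratin 14 promoter, which is active in basal epithelium of the whole skin and not in HFSCs alone. The WT mice carried the same floxed alleles without the Cre. Both groups had the strain label B6;129S4-Dab2tm1Cpr/J and received tamoxifen at 75 mg/kg for 5 days, and each group had 3 arrays that the labels call biological replicates, so the p-values measure the spread between those samples. The labels place WT cells at the telogen-anagen transition and Dab2-cKO cells in late telogen, so genotype and hair cycle phase cannot be told apart. Signals are log2 units from 1 ng of amplified RNA.

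A hair shaft is built in anagen, the growth phase, when matrix cells at the base of the follicle differentiate and fill themselves with hair keratins. The KAPs form the matrix between the keratin filaments, and the high glycine-tyrosine group are short proteins rich in those amino acids, known from the hair cortex early in its differentiation. In telogen, the resting phase, no new shaft is built.

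Because the members lie in the same cluster and moved together, the stretch just before their transcription starts is shown for 7 of the 14 that the RefSeq promoter table of build GRCm38.p6 holds. Krtap19-2, Krtap19-1 and Krtap19-5 are 3 of the members with the largest differences, and Krtap8-1 and Krtap22-2 come from other subfamilies. Krtap6-3 and Krtap20-2 are the pair with the next highest promoter identity after Krtap19-1 and Krtap19-2. Krtap20-2 lay under the background level described below in both groups, so its difference is not set against that of Krtap6-3. Each line gives the 100 bases before the start, 5′ to 3′ on the strand of the gene, with the letters TATAA in capitals.
Krtap19-2 (chr16:88874270-88874369, minus strand): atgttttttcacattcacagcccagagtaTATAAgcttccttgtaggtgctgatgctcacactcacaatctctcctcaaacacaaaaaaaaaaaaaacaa
Krtap19-1 (chr16:88869411-88869510, minus strand): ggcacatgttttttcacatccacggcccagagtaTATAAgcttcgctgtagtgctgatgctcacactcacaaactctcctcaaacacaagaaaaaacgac
Krtap19-5 (chr16:88896450-88896549, minus strand): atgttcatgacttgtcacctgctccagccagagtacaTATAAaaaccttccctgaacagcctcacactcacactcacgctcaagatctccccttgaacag
Krtap8-1 (chr16:89487953-89488052, minus strand): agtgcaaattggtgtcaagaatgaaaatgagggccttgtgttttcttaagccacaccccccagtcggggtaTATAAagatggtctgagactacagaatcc
Krtap22-2 (chr16:89010760-89010859, minus strand): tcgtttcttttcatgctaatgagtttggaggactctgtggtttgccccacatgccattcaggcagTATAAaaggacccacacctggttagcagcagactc
Krtap6-3 (chr16:89083924-89084023, plus strand): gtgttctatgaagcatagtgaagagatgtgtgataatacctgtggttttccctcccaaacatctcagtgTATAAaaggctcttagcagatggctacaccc
Krtap20-2 (chr16:89205761-89205860, plus strand): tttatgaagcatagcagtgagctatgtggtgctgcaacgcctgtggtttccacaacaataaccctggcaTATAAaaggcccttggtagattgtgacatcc

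The TATAA core lay on the strand of the gene within the 100 bases before the start in 14 of 14 members, in 29 of 30 other KAP genes and in 7.98% of the 27025 genes in the promoter table. This shorter core was searched after the promoters had been seen. In Krtap8-1 it began 29 bases before the start, in Krtap6-3 and Krtap20-2 31 bases before, in Krtap22-2 35, in Krtap19-5 63, in Krtap19-1 66 and in Krtap19-2 71. The full TATA box TATAAA, which contains the core, occurred on either strand of the 300-base window (250 bases before to 50 after the start) in 10 of 14 members (71.4%), in 27 of 30 other KAP genes and in 14.2% of all genes. On the strand of the gene and beginning 20 to 40 bases before the start, it occurred in 7 of 14 members, in 21 of 30 other KAP genes and in 2.22% of all genes.

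Motifs of the LEF/TCF and forkhead families were found in fewer members. No motif was searched for the forkhead factor Foxn1 in particular. The LEF/TCF letters CTTTGAA, or CTTTGAT, or CTTTGTA, or CTTTGTT, occurred on either strand in 4 of 14 members, in 12 of 30 other KAP genes and in 16.9% of all genes. The forkhead core TAAACA, whose first letters can overlap the end of a TATA box, occurred on either strand in 5 of 14 members, in 20 of 30 other KAP genes and in 13.4% of all genes. Promoters of Krtap19-1 and Krtap19-2 were 93% identical over the window and those of Krtap6-3 and Krtap20-2 were 69.3% identical. The median over the 91 pairs of members was 61.7%, against 61.3% over 435 pairs of other KAP genes. The alignments allowed gaps and no unrelated promoters were aligned, so the identity that unrelated sequences reach is not known. A match of letters is a description of the sequence and does not show that a factor binds there.

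The targeted gene was examined first because it checks the labels. Dab2 averaged 8.86 ± 0.09 on the arrays labelled Dab2-cKO and 6.52 ± 0.08 on the WT arrays (SD, n = 3 each), so it stood 2.34 ± 0.08 (SE) higher where the gene should be deleted (adjusted p = 1.34e-05, limma). The WT mean lay under the background level of 7.27 log2 units described below, so the fold is at least 3.00. Probes that lie beyond the deleted exons would check nothing, and the row may hold such probes. The value runs opposite to the deletion that the labels name, so the group is written as the arrays labelled Dab2-cKO. Each direction given holds only if the labels do. All 11 leukocyte, all 9 endothelial and 8 of 9 fibroblast markers were also higher on these arrays, against 5556 of all 30098 genes. The part of these markers' cells in the Dab2 signal was not tested. Over all genes, arrays of a group correlated at 0.991 or more and arrays of different groups at 0.936 or less.

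All 15 high glycine-tyrosine KAP genes fell in the arrays labelled Dab2-cKO and none rose (limma, adjusted over the 30098 genes). Over all genes, 32.4% were lower by the same test. The median difference of the members was -10.05 log2 units, against -0.14 over all genes. The adjusted p of the members ran from 5.92e-08 to 0.00125. In all 15 the 3 arrays labelled Dab2-cKO lay below the 3 WT arrays, which held for 41.3% of all genes, and the gap between the lowest WT array and the highest array labelled Dab2-cKO ran from 1.43 to 12.39 log2 units.

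The size of the falls separated 13 members from the other 2. These 13 fell by more than 9 log2 units, which 32 of the 30098 genes (0.106%) did, and their differences ran from -12.58 to -9.09. Among them the highest array labelled Dab2-cKO reached 8.98, while the lowest WT array stood at 12.85. For 11 of the 15 members the lower end of the difference was a mean under the background level defined below, so their order by size is not read. The other 2 members were Krtap21-1 and Krtap20-2.

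**Figure D1:**
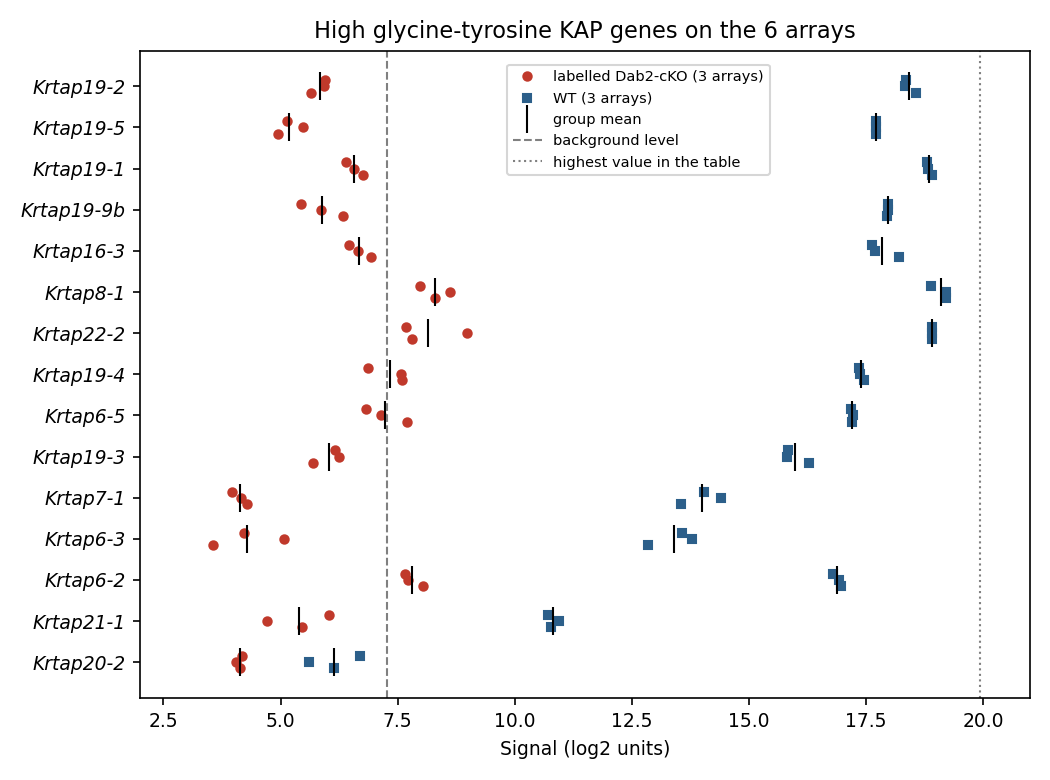
Signal (log2 units, x axis) of each high glycine-tyrosine KAP gene (y axis, ordered by difference) on the 3 arrays labelled Dab2-cKO (circles) and the 3 WT arrays (squares), with group means as bars, the background level of 7.27 as a dashed line and the highest value of the table as a dotted line. Circles and squares do not overlap in any row, and Krtap20-2 is the 1 member with both groups left of the dashed line.

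A background level of 7.27 log2 units stood in for a detection call. It was set from 1527 genes of olfactory and vomeronasal receptors, as the 95th percentile of their means. The mean of the arrays labelled Dab2-cKO lay below it for 11 members, whose folds are given as "at least" and were computed against that level. In WT, 14 members lay above it. The folds hold only for this level. With the 99th percentile, 9.34, the fold was at least 544 for Krtap19-2 and at least 870 for Krtap8-1. Whether the deposited scale keeps the ratios of RNA at bright signals was not tested. The receptor genes themselves had a median difference of -0.80, and 1129 of the 1527 were lower by the test.

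Krtap19 was the subfamily with the most members, 6, and its differences ran from -12.58 to -9.95. Krtap19-2 measured 5.65, 5.92 and 5.96 on the arrays labelled Dab2-cKO, against 18.58, 18.34 and 18.36 on the WT arrays. All 3 arrays labelled Dab2-cKO were under the background level, and the groups lay far apart. The difference was -12.58 ± 0.11 (SE, adjusted p = 5.92e-08), at least 2278-fold. Differences whose lower group lies under the background level have no order among themselves.

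Krtap19-5 had 4.94, 5.49 and 5.14 on the arrays labelled Dab2-cKO and 17.71 on each of the 3 WT arrays. The difference was -12.52 ± 0.14 (adjusted p = 1.39e-07), at least 1384-fold. The near-equal WT values recur among the members. In Krtap19-5, Krtap19-9b and Krtap22-2 the WT arrays lay within 0.01 log2 units of each other, as in 166 of all 30098 genes. On the arrays labelled Dab2-cKO no member did so, while 132 of all genes did. The near-equal WT values give no estimate of the spread between WT samples. Whether they mark the top of the measurable range of their probes was not tested. Krtap19-1, Krtap19-9b, Krtap19-4 and Krtap19-3 differed by -12.28, -12.09, -10.05 and -9.95.

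Krtap16-3, of a small subfamily in the same cluster, had 6.92, 6.66 and 6.47 on the arrays labelled Dab2-cKO, against 18.21, 17.70 and 17.63 in WT. It was lower by at least 1527-fold (difference -11.17 ± 0.19, adjusted p = 9.12e-07). Both groups were tight and wide apart.

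Krtap8-1 encodes a high glycine-tyrosine protein of the hair cortex that is the only KAP8 type in the set. Its signal was 8.31, 8.63 and 7.99 on the arrays labelled Dab2-cKO and 19.21, 19.21 and 18.89 on the WT arrays. All arrays labelled Dab2-cKO stayed above the background level, and it was 1778-fold lower, with 2 of its WT arrays at the same value (difference -10.80 ± 0.18, adjusted p = 9.08e-07). Krtap22-2 had 7.81, 8.98 and 7.68 on the arrays labelled Dab2-cKO, where the second array was the high one, against 18.91 on all 3 WT arrays. It differed by -10.75 ± 0.33 (adjusted p = 8.46e-06).

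The 3 Krtap6 genes differed by -9.98 to -9.09. Krtap6-5, the member of that subfamily that differed most, measured 7.69, 7.15 and 6.83 on the arrays labelled Dab2-cKO and 17.20, 17.23 and 17.18 on the WT arrays. Its arrays labelled Dab2-cKO straddled the background level, and it was lower by at least 975-fold (difference -9.98 ± 0.21, adjusted p = 2.08e-06). Krtap6-3 had the widest spread on the arrays labelled Dab2-cKO of any member, an SD of 0.76 (n = 3), and Krtap6-2 was 544-fold lower with both group means above the background level.

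Krtap7-1, the only Krtap7 gene, had 4.29, 4.15 and 3.95 on the arrays labelled Dab2-cKO, against 13.56, 14.41 and 14.04 in WT. The arrays labelled Dab2-cKO were all well under the background level, so the difference of -9.87 ± 0.22 (adjusted p = 2.52e-06) is given as at least 106-fold.

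Krtap21-1 and Krtap20-2 were the 2 members with the smallest differences. Krtap21-1 measured 5.45, 4.70 and 6.03 on the arrays labelled Dab2-cKO and 10.78, 10.95 and 10.71 on the WT arrays. It was lower by at least 11.6-fold (difference -5.42 ± 0.32, adjusted p = 7.11e-05), and the groups did not overlap. Krtap20-2 measured 4.14, 4.06 and 4.18 on the arrays labelled Dab2-cKO and 6.14, 5.61 and 6.70 in WT. Its difference of -2.02 ± 0.26 passed the test (adjusted p = 0.00125), but both groups lay under the background level and the receptor genes reached differences of -3.06, so no fold is given for it.

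Sequence overlap within the family limits what a row can be given to. KAP genes of a subfamily are close in sequence, and probes of 1 gene may not separate it from its relatives. The symbols Krtap6-1 and Krtap16-1 also carry the prefixes, but all their rows name other genes as well, so they were left out of the 15. Their 4 rows were tested among all 65956 transcript rows, of which 31.9% were lower. All 4 were lower, by -11.08, -11.65 and -12.29 in the 3 rows naming Krtap6-1 with Gm10228 and 1110025L11Rik, and by -8.58 in the row naming Krtap16-1 with Gm11570, which lies on chromosome 11. RefSeq lists Gm11570 as a synonym of Krtap16-1, so this row may name a single gene. By its prefix alone that gene would add 1 member, on chromosome 11 and also lower, to the 15. Whether its protein is of the high glycine-tyrosine type was not examined.

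In RefSeq order, 49 genes run from Krtap19-1 to Krtap7-1 on chromosome 16, the 15 members among them. Of the 34 others, 7 had a row of their own, of which 6 were lower and 1 was not called. Gm10229, a protein-coding gene between Krtap22-2 and Krtap6-5, had 7.28, 7.55 and 6.86 on the arrays labelled Dab2-cKO, against 19.64, 19.64 and 19.66 in WT. Its difference was -12.42 ± 0.17, at least 5315-fold, with the mean of the arrays labelled Dab2-cKO under the background level and 2 WT arrays at the same value. Gm7735, Gm6358 and Gm10061, whose means were 10.56 to 11.19 in the arrays labelled Dab2-cKO and 16.85 to 19.52 in WT, differed by -8.33, -7.28 and -6.29. Next to Krtap7-1 lies Krtap11-1, a KAP gene of another group, which differed by -12.16. Beyond it, Tiam1 had a difference of 0.15 ± 0.12 and did not pass the test (adjusted p = 0.317). On the other side, before Krtap19-1, the KAP genes Krtap14 and Krtap26-1 differed by -10.05 and -7.65. Among genes there without a Krtap symbol, the claudin genes Cldn8 and Cldn17 were lower, by -1.56 and -1.28. Both claudin genes lay under the background level in both groups. Another, 2310061N02Rik, was lower by -2.83. Whether the neighbours with Gm or Rik symbols encode KAPs was not examined. Nearer to Krtap19-1, 2310034C09Rik, 2310057N15Rik and Gm20741 were not called and Gm5965 was lower by -0.75, all under the background level in both groups.

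**Figure D2:**
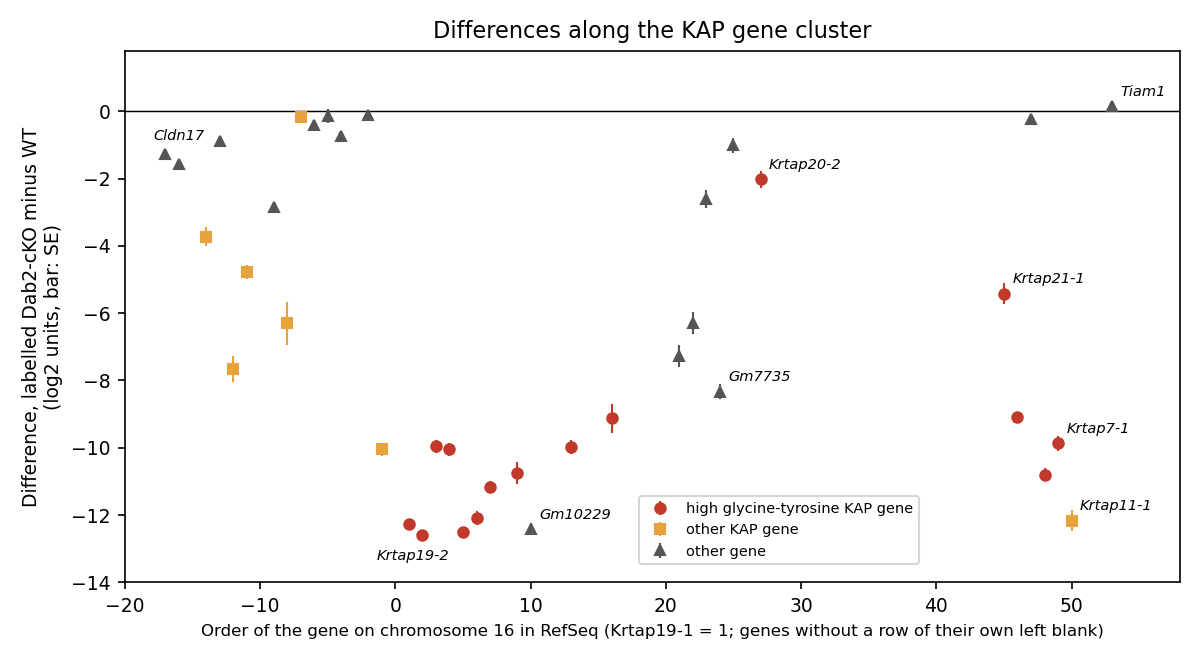
Difference between arrays labelled Dab2-cKO and WT (log2 units, y axis, bars are SE) for each gene with a row of its own, by its order on chromosome 16 (x axis, Krtap19-1 as 1). Circles are the 15 high glycine-tyrosine KAP genes, squares other genes with a Krtap symbol and triangles genes without one. Of the circles, 13 lie at -9.09 or lower, and Krtap21-1 and Krtap20-2 lie higher. Tiam1 beyond the cluster lies near 0.

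The other KAP genes of the array, mostly of the high-sulfur and ultrahigh-sulfur groups, which appear later in the cortex and in the cuticle of the shaft, fell too. Of 33, 32 were lower and none was higher, with a median of -4.69, against -10.05 in the high glycine-tyrosine genes. Only 4 of the 33 fell by more than 9 log2 units, compared with 13 of the 15: Krtap11-1 (-12.16), Krtap1-5 (-12.05), Krtap28-13 (-10.55) and Krtap14 (-10.05). A fall cannot be larger than the distance of the WT signal from the bottom of the scale, and no test was made of the difference between these 2 lists. Krtap13, the 1 other KAP gene not called, lay under the background level in both groups, at 3.65 on average in the arrays labelled Dab2-cKO and 3.82 in WT.

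The keratins that the KAPs embed moved in the same direction. All 12 hair shaft keratins with a row were lower, with a median of -6.09, and Krt31, Krt33a, Krt33b and Krt34 differed by -11.00, -10.96, -10.71 and -10.67. All 12 genes of the inner root sheath, the layer round the shaft, were lower with a median of -9.77, led by Tchh, which encodes trichohyalin (-11.29), and by the sheath keratins Krt71 (-11.17), Krt28 (-10.86) and Krt25 (-10.69). Hair shaft regulators differed less. All 14 were lower with a median of -1.43, but 6 of them exceeded the background level in either group, and after centring each array on the receptor genes the counts were 10 lower and 1 higher.

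Among those regulators, Dlx3 and Msx2, homeodomain factors of the hair matrix, differed by -5.69 and -3.75. Lef1, the DNA-binding partner of β-catenin in the matrix, differed by -4.21. Foxn1, a forkhead factor required for normal shaft differentiation, differed by -2.67 but lay under the background level in both groups, at 4.51 on average in the arrays labelled Dab2-cKO and 7.18 in WT.

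**Figure D3:**
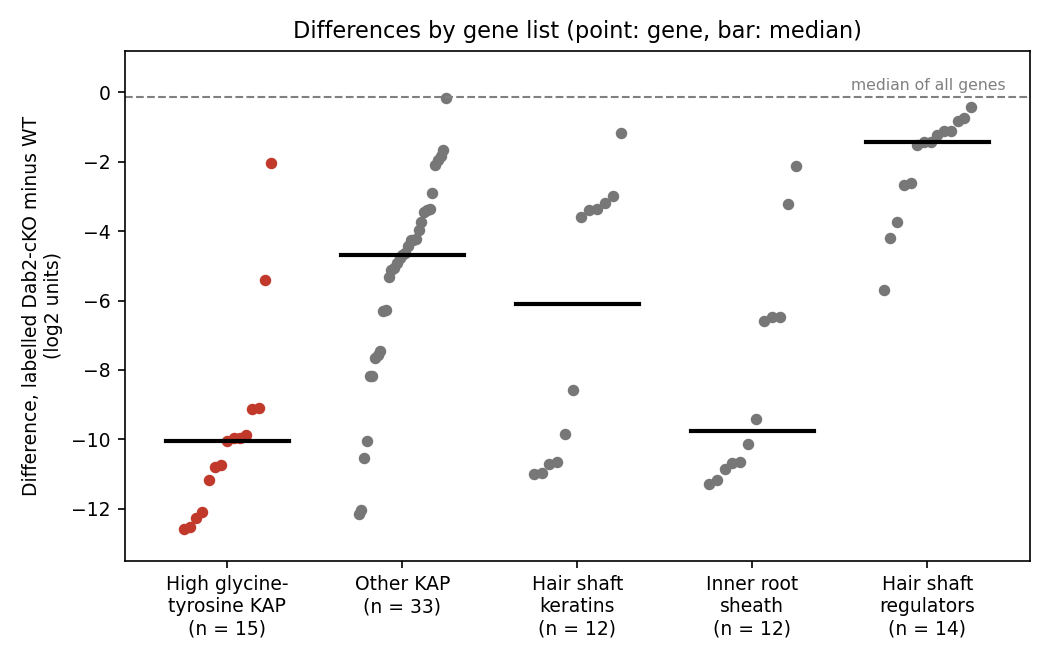
Difference between arrays labelled Dab2-cKO and WT (log2 units, y axis) of each gene (point) in 5 lists (x axis), with the list median as a bar and the median of all genes, -0.14, as a dashed line. The median of the high glycine-tyrosine KAP genes, -10.05, and that of the inner root sheath genes, -9.77, lie lowest, and that of the hair shaft regulators, -1.43, lies highest of the 5.

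Markers of other cells moved in the same arrays, and their part in the fall of the KAP genes was not tested. The summed linear signal of the 15 KAP genes, on a log2 scale, ran from 10.44 to 10.95 on the arrays labelled Dab2-cKO and from 21.50 to 21.66 in WT. The bulge markers Cd34 and Krt15 were present in both groups, at 12.00 and 15.75 in the arrays labelled Dab2-cKO and at 9.55 and 14.72 in WT, and shaft and sheath genes were bright in the same WT samples. Of 16 bulge markers, 8 were higher, Cd34 and Krt15 among them, and 5 lower, Lgr5 (-1.63) and Sox9 (-1.04) among them. Over all genes, 32.4% were lower and 5556 of 30098 were higher. Lgr5 lay under the background level in both groups, and Sox9 did so on the arrays labelled Dab2-cKO, at 6.51 on average. After centring each array on the receptor genes, 12 of the 16 were higher and 1 lower. As deposited, the sum of the 16 ran from 18.19 to 18.48 in the arrays labelled Dab2-cKO and from 17.54 to 17.87 in WT. Such a sum follows the brightest genes of its list. Here these were Krt5, at 17.41 in the arrays labelled Dab2-cKO and 17.02 in WT, and Krt14, at 16.60 and 15.64. The keratin 14 promoter is active in basal epithelium of the whole skin, so this sum does not measure the bulge alone. Fewer cells of a type in the sorted fraction and less RNA of its genes per cell cannot be told apart in such bulk samples.

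Of 10 hair germ and matrix markers, 9 were lower and none higher (sums of 10.92 to 11.50 in the arrays labelled Dab2-cKO and 14.59 to 14.98 in WT). Mki67 was the brightest of them, at 10.71 in the arrays labelled Dab2-cKO and 14.46 in WT. Dlx3, Lef1, Msx2 and Hoxc13 stand in this list and also among the hair shaft regulators, so the lists overlap. Of 10 melanocyte markers, 8 were lower and 1 higher (sums of 10.59 to 10.71 in the arrays labelled Dab2-cKO and 14.34 to 14.55 in WT). Of 10 suprabasal epidermis markers, 7 were higher and 1 lower (20.58 to 20.79 in the arrays labelled Dab2-cKO and 18.79 to 19.27 in WT). All 11 leukocyte markers were higher, against 5556 of 30098 over all genes. The sums of the leukocyte markers were 15.40 to 15.53 in the arrays labelled Dab2-cKO and 10.89 to 11.01 in WT. All 9 endothelial markers were higher, with sums of 13.34 to 13.65 in the arrays labelled Dab2-cKO and 9.87 to 10.18 in WT. All 10 skeletal muscle markers were higher, with 19.97 to 20.17 in the arrays labelled Dab2-cKO and 17.15 to 17.67 in WT, and 8 of 9 fibroblast markers were higher, with 18.73 to 19.08 in the arrays labelled Dab2-cKO and 15.87 to 16.28 in WT. Of 10 dermal papilla markers, 6 were lower and 1 higher, but after centring each array on the receptor genes the counts were 2 lower and 6 higher. Of 5 keratins listed for the companion layer and inner bulge, Krt75 (-5.37) and Krt17 (-1.73) were lower and the other 3 were not called, whereas that centring gave 2 lower and 3 higher. It gave 7 lower and 1 higher for the hair germ and matrix markers, 6 lower and 2 higher for the melanocyte markers, and 9 higher and 1 lower for the suprabasal markers.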

How the data were processed

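HFSC samples, 3 labelled Dab2-cKO and 3 WT, were profiled on a mouse whole-transcriptome Affymetrix array after amplification of 1 ng RNA. The authors deposited log2 signals, 1 value per row and array. RMA and Affymetrix Expression Console stand, without versions, in the submitters' processing notes. RMA subtracts background, equalises probe distributions between arrays and summarises the probes of a row, so these values cannot show changes in the total RNA of a cell. The study analysed the arrays with Transcriptome Analysis Console. Folds are 2 to the power of a difference on the deposited scale, whose highest value was 19.93 log2 units. Whether that scale keeps the ratios of RNA at such values was not tested. The number of arrays limits precision.

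Of 72688 rows, 6732 control rows were left out. Of the 65956 transcript rows, 30638 named 1 gene in the platform annotation, 2176 several and 33142 none. These gave 30098 genes, 30096 of them in the RefSeq gene table of GRCm38.p6. Where a gene had several rows (427 genes), the brightest by mean over the 6 arrays was kept. Each high glycine-tyrosine KAP gene had 1 row. Dab2-cKO was compared with WT with limma 3.58.1 in R 4.3.3 (lmFit, eBayes, no covariate, two-sided, Benjamini-Hochberg over 30098 genes, threshold 0.05). SE is limma's moderated standard error. The fit was tested on simulated data. Sequences came from the RefSeq promoter table and were searched with Python 3.11.15; Krtap7-1 was not matched, and proteins were not analysed here.

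The members and all lists were chosen with earlier results of these data known. Values on every array are given for the 2 members with the largest and the 2 with the smallest difference and for the member of each subfamily that differed most; other lists are represented by at most 4 genes with the largest differences, and Dab2 always. Cd34, Krt15, Lgr5, Sox9, Krt5, Krt14, Mki67, Krtap13, Krtap6-3, Krtap6-2 and the neighbouring genes were named after their values were seen. Alternatives covered a block for the replicate number, leaving out each array, 4 other scalings, filters on dim and on non-coding genes, the mean of a gene's rows, an intensity trend, the methods' t-test and a higher background level.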

Additional observations from a re-analysis of the deposited data

How the results depend on the processing

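Under all 17 alternatives run on the genes, each of the 254 values of the high glycine-tyrosine KAP genes stayed below 0 and past the threshold, as did the 152 values, among them, of the 9 members given array by array; Gm10229 was not rerun. The median difference of the members ran from -10.21 to -10.02 when each array was left out in turn, and was -9.85 with arrays centred on the median gene, -9.25 on receptor genes, -10.39 on positive control rows and -10.40 over the 14 members above the background level. The counts over all genes depended on scaling. Against 9750 lower and 5556 higher genes as deposited, centring on the median gave 6030 lower and 8408 higher, quantile normalization 6344 lower, centring on receptor genes 2378 lower and 22075 higher, and centring on positive control rows 15610 lower and 2577 higher. The median of all genes moved by 0.20, 0.18, 0.79 and -0.35 under these 4 scalings. Among the 8695 genes above the background level 3005 were lower and 2971 higher, and 6 of 6 hair shaft regulators were lower; fewer genes were tested there. Among protein-coding genes 5531 were lower.

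With the background level at the 99th percentile of the receptor genes, 9.34, the fold became at least 544 for Krtap19-2, 330.4 for Krtap19-5, 364 for Krtap16-3, 870.2 for Krtap8-1, 758 for Krtap22-2, 233 for Krtap6-5, 25.3 for Krtap7-1 and 2.78 for Krtap21-1. The replicate numbers did not pair the arrays, as the deviations of same-numbered arrays correlated at -0.08, -0.22 and -0.02. With the replicate block, all 15 members stayed lower with a highest adjusted p of 0.0033, and 7853 genes were lower and 4659 higher. No row named several high glycine-tyrosine KAP genes and no other gene, so the planned count of such rows has no value. In the 100 bases round the start, 8 members held TATAAA, 9 the TATAA core and 0 the LEF/TCF or forkhead letters.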
